A study of Mus musculus with 16 samples.

Results

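The isocitrate and 2-oxoglutarate enzymes were taken as 8 genes by their symbols in the deposited expression table: Idh1, Idh2, Idh3a, Idh3b, Idh3g, Ogdh, Dlst and D2hgdh. Each symbol matched 1 of the 54532 genes listed. The RNA sequenced came from aortas of male mice, 8 to 12 weeks old when infused, given by the labels as strain C57BL/6j and Apoe-/-, that is, lacking apolipoprotein E. The 8 control samples came from mice given saline and the other 8 from mice given the vasoconstrictor hormone angiotensin II (Ang II). The dose of Ang II was 1000 ng per kg per min, and both were given by osmotic pump for 7 days. By these labels both groups carried the Apoe deletion, which raises plasma cholesterol; the library names also carry the letters WT, which the labels do not explain. The adventitia, the outer layer of the wall, was removed. The media, which this leaves in the sample, is made mainly of smooth muscle cells. Markers of other cell types were present too, such as endothelial Pecam1 at 248 to 628 FPKM with saline and 67.3 to 463 FPKM with Ang II. The study's title names the glutamine transporter gene Slc1a5 and glutamine breakdown, which feeds carbon into 2-oxoglutarate. The labels do not state which mouse each sample came from, so the p-values cover the spread among these 16 samples, which may be technical in part.

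Isocitrate is oxidised to 2-oxoglutarate by separate enzymes. The product of Idh1 works in the cytosol and peroxisomes and that of Idh2 in the mitochondrial matrix, and both reduce NADP+ to NADPH, which is used in lipid synthesis and in antioxidant defence. The third enzyme is the NAD+-dependent one of the TCA cycle, built from the catalytic subunit encoded by Idh3a and the subunits encoded by Idh3b and Idh3g. The 2-oxoglutarate dehydrogenase complex then turns 2-oxoglutarate into succinyl-CoA, with Ogdh encoding its E1 and Dlst its E2 component. D2hgdh encodes the mitochondrial enzyme that oxidises D-2-hydroxyglutarate back to 2-oxoglutarate. 2-oxoglutarate is also the co-substrate of the dioxygenases that demethylate histones and DNA, and 2-hydroxyglutarate can inhibit them.

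The values are FPKM, fragments scaled by the length of the transcript and by the reads of the library, and the library totals behind them ran from 14606860 to 17590086 reads with saline and from 15779128 to 19988728 with Ang II. Smooth muscle markers differed in level. Myh11, the smooth muscle myosin heavy chain, held 1295 to 2073 FPKM with saline and 634 to 1153 FPKM with Ang II. Myocd, the lowest of these markers, held 4.49 to 45.0 FPKM with saline and 11.2 to 49.7 FPKM with Ang II. Apoe, the gene labelled as deleted, was listed at 14.7 to 110.1 FPKM with saline and at 6.81 to 17.2 FPKM with Ang II, and a value per gene does not show which part of the transcript these reads came from, so it does not check the label. Saline 7 and Saline 8, and to a lesser degree Saline 2, stood apart from the other saline libraries along principal component 1, which held 46.9% of the variance. In Saline 7 and Saline 8 the deviation of genes from their mean over all libraries also rose with the GC content of their transcripts, with Spearman coefficients across genes of 0.408 and 0.366. The coefficient largest in size was that of Ang II 8, at -0.427. Slc1a5 averaged 169 ± 51.6 and 71.3 ± 15.1 FPKM in the saline and Ang II groups (SD, n = 8 per group).

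With Ang II, 4 of the 8 genes fell and none rose. They were Idh2, Idh3b, Idh3g and D2hgdh, while Idh1, Idh3a, Ogdh and Dlst did not pass the test (limma on log2(FPKM + 1), Benjamini-Hochberg adjusted p under 0.05 over 15007 genes tested). Over all genes tested, 34.5% passed in either direction, 24.9% lower and 9.54% higher. At an unadjusted limma p under 0.05, 1 of the 8 genes (Idh1) was higher, while the Wilcoxon test and voom on recovered reads called none higher. The median log2 fold change of the 8 genes was -0.47, and that of all genes tested was -0.12. In 3 of the 8 genes the highest Ang II library was under the lowest saline library, which held for 5.62% of all genes tested, and in none was it the other way round (2.74% of all genes). After the libraries were scaled to each other by their median ratio, the median of all genes was -0.01 and the same 4 genes were called lower, where 14.1% of all genes were called lower and 14.9% higher. Idh1 and Idh3a were then called higher.

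**Figure D1:**
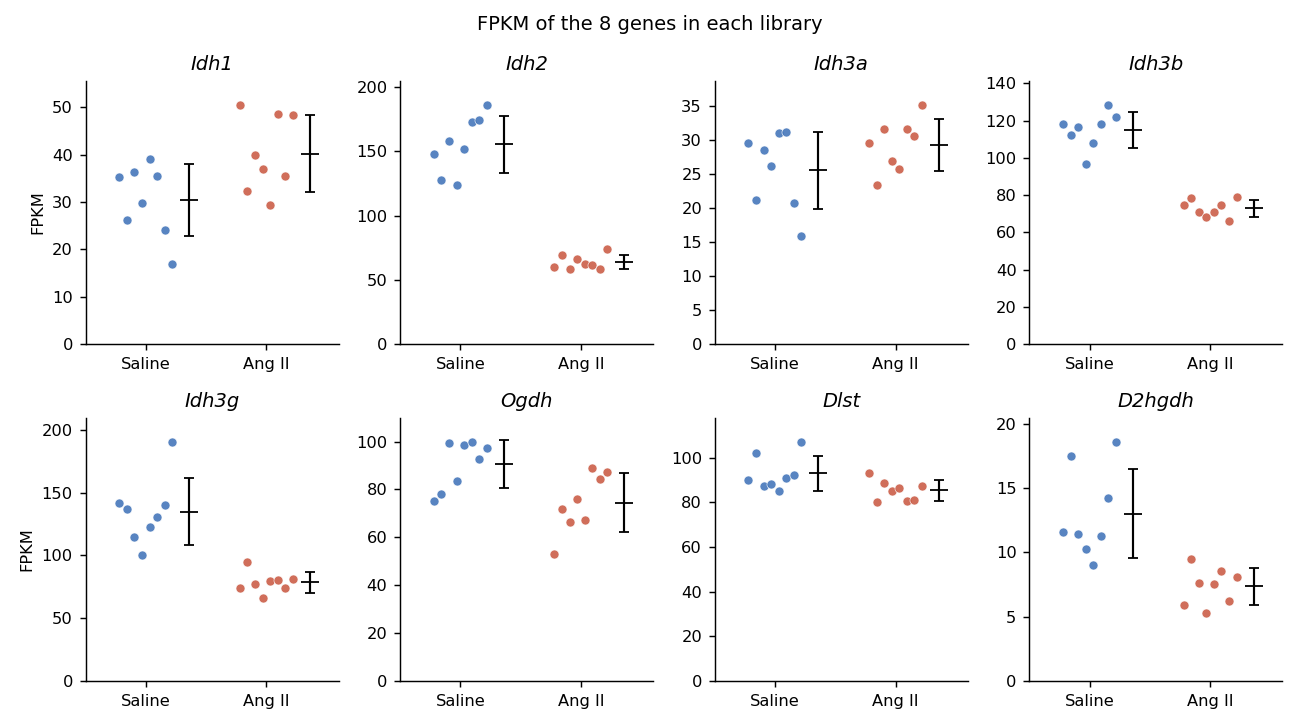
FPKM of each of the 8 genes (vertical axes from 0) in the 8 saline (blue) and 8 Ang II (red) libraries, in replicate order, with the mean and SD at the right of each group. Idh2, Idh3b and Idh3g show no overlap between the groups, while Idh1, Idh3a, Ogdh, Dlst and D2hgdh overlap.

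Idh2 (ENSMUSG00000030541, chr7:80094846-80115392, minus strand; all gene positions on GRCm38) had the largest change of the 8. It was at 124 FPKM in the lowest, 155 in the median and 186 FPKM in the highest saline library, against 58.1, 62.1 and 73.9 FPKM with Ang II. The groups did not come near each other, since the highest Ang II library (Ang II 8) was well below the lowest saline library (Saline 4). Idh2 fell from 155 ± 22.1 to 63.8 ± 5.53 FPKM (SD, n = 8 per group), or -1.26 in log2 fold change (SE 0.10; adjusted p = 9.16e-08, limma). Exact two-sided permutation of the group labels returned p = 0.0001554, which is the lowest value possible over the 12870 assignments. Ordered by log2 fold change from the lowest, Idh2 ranked 232 among the 15007 genes tested. In order of FPKM, Idh2 was the highest of the 8 genes with saline and the fifth with Ang II, after Dlst, Idh3g, Ogdh and Idh3b. The saline ranges of Idh2, Idh3g and Idh3b overlapped, as did those of Dlst and Ogdh and of Idh1 and Idh3a. The saline range of Dlst also overlapped those of Idh3b and Idh3g, that of Ogdh overlapped Idh3b, and that of D2hgdh overlapped Idh1 and Idh3a. With Ang II the range of Idh2 overlapped those of Idh3b, Idh3g and Ogdh and lay below that of Dlst, and D2hgdh lay apart below all the others.

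Idh1, the cytosolic counterpart (ENSMUSG00000025950, chr1:65158616-65186500, minus strand), was not called in either direction. It held 17.0 FPKM in the lowest, 32.5 in the median and 39.0 FPKM in the highest saline library, and 29.4, 38.4 and 50.5 FPKM with Ang II. The groups overlapped, with 4 of 8 Ang II libraries above every saline library. Its log2 fold change was 0.41 (SE 0.16; adjusted p = 0.0612, limma; exact permutation p = 0.0263, unadjusted). It passed the test after median ratio scaling (0.55, limma adjusted p = 0.0112), and without Saline 2, Saline 7 and Saline 8, the 3 saline libraries lowest in Idh1, it was 0.17 (limma adjusted p = 0.335).

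Set against each other within a library, where scaling between libraries plays no part, the NADP+-dependent pair shifted. Idh2 made up 83.5% ± 4.16 of the summed FPKM of Idh1 and Idh2 with saline and 61.6% ± 5.11 with Ang II (SD, n = 8 per group). The share was 79.6% to 91.6% with saline and 54.3% to 68.2% with Ang II, with no overlap. The log2 ratio of Idh2 to Idh1 fell by 1.70 (exact permutation test, adjusted p = 0.000311 over 6 ratios). Trends with GC content that differ between libraries can still enter such a ratio. With trends of GC content and transcript length removed from each library the difference was -1.35, and without Saline 2, Saline 7 and Saline 8 it was -1.41. Both passed the test (exact permutation, adjusted p = 0.000233 and 0.00155). The sum of the pair was 154 to 208 FPKM with saline and 92.0 to 122 FPKM with Ang II, again without overlap.

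The 3 subunits of the NAD+-dependent enzyme differed in their changes: Idh3b (ENSMUSG00000027406, chr2:130279309-130284547, minus strand) and Idh3g (ENSMUSG00000002010, chrX:73778963-73786897, minus strand) fell, and Idh3a did not pass the test. Idh3b was at 96.6, 117 and 128 FPKM in the lowest, median and highest saline library and at 66.3, 72.9 and 78.9 FPKM with Ang II. Idh3g was at 100.3, 134 and 191 FPKM with saline and at 66.2, 78.3 and 94.7 FPKM with Ang II. For both subunits every Ang II library was below every saline library. Idh3b fell from 115 ± 9.56 to 73.0 ± 4.52 FPKM, a log2 difference of -0.65 (SE 0.08; adjusted p = 9.32e-06, limma), and it had, with Dlst, the smallest relative spread of the 8 genes within groups. Idh3g fell from 135 ± 26.7 to 78.5 ± 8.11 FPKM, a log2 difference of -0.76 (SE 0.11; adjusted p = 0.000105, limma). Exact permutation tests gave p = 0.0001554 for each.

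Idh3a, the catalytic subunit (ENSMUSG00000032279, chr9:54586334-54604661, plus strand), was the lowest of the 3 in both groups. It was at 15.9, 27.3 and 31.2 FPKM in the lowest, median and highest saline library and at 23.4, 30.1 and 35.2 FPKM with Ang II. The groups overlapped throughout most of their range, and only 3 of 8 Ang II libraries exceeded every saline library. Its log2 fold change was 0.21 (SE 0.13, limma adjusted p = 0.229, exact permutation p = 0.136, unadjusted). The lowest saline values were those of Saline 8, Saline 7 and Saline 2, and without these libraries it was -0.01, while after median ratio scaling it was 0.35 (limma adjusted p = 0.0331).

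The balance of the subunits within libraries differed between the groups. With saline there were 4.59 units of Idh3b FPKM per unit of Idh3a FPKM (geometric mean) and with Ang II 2.50. The log2 ratio of Idh3a to Idh3b was higher in each Ang II library than in every saline library, by 0.88 between the means (exact permutation test, adjusted p = 0.000311). For Idh3a to Idh3g the difference was 0.99 (adjusted p = 0.000932, exact permutation), with 7 of 8 Ang II libraries above every saline library. Idh3a made up 9.49% ± 2.57 of the summed FPKM of the 3 subunits with saline and 16.3% ± 2.07 with Ang II (SD, n = 8 per group). The 2 differences in log2 ratio were smaller without Saline 2, Saline 7 and Saline 8, at 0.60 and 0.62, and still passed the test (adjusted p = 0.00155 and 0.00373). The log2 ratio of Idh2 to Idh3a had means of 2.63 with saline and 1.12 with Ang II and did not overlap between groups (exact permutation, adjusted p = 0.000311). Its difference of -1.50 was -1.07 with trends of GC content and length removed and -1.23 without Saline 2, Saline 7 and Saline 8. The FPKM divide by the mean length of a gene's annotated transcripts, from 911 bases for Idh3g to 2646 for Ogdh, so levels compared between genes depend on that length, while changes of a ratio between groups do not.

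**Figure D2:**
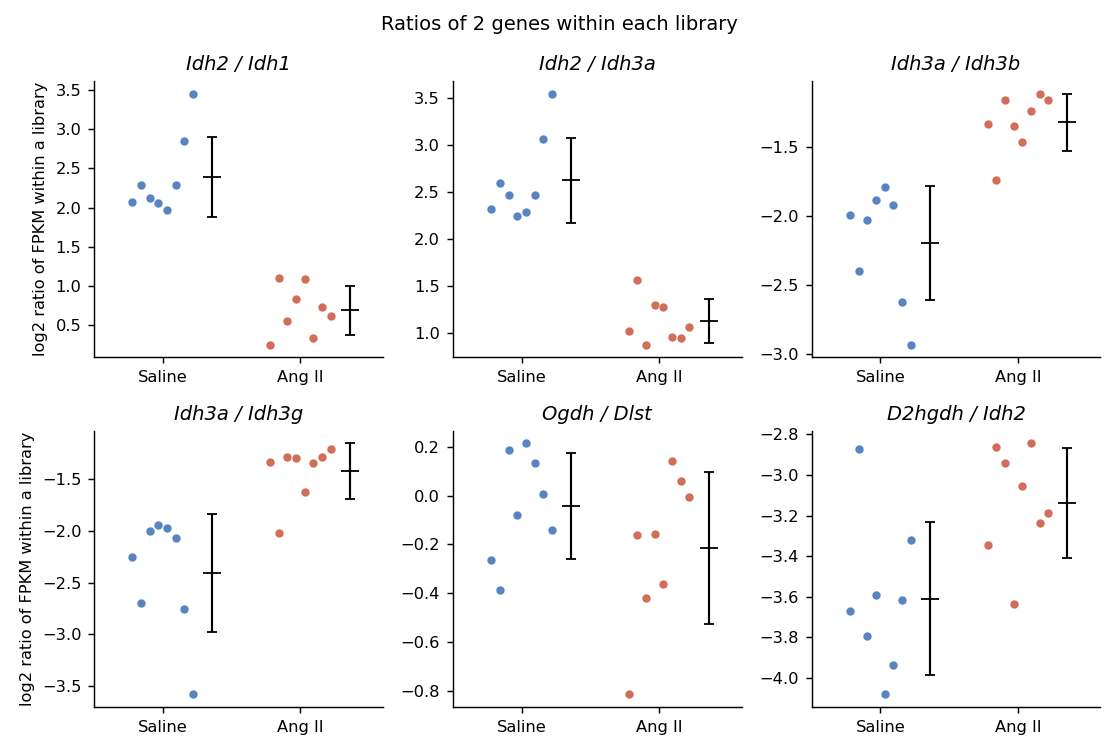
Log2 ratio of the FPKM of 2 genes within each library (vertical axes, each with its own range) for the 8 saline (blue) and 8 Ang II (red) libraries, with the mean and SD at the right of each group. The ratios Idh2 to Idh1, Idh2 to Idh3a and Idh3a to Idh3b do not overlap between groups, and that of Ogdh to Dlst overlaps widely.

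Promoter windows are shown for the 3 genes whose groups did not overlap, 250 bases before to 50 bases after the start, from RefSeq on GRCm38.p6. Capitals mark matches on either strand to 5 motifs: GGGCGG is the GC box that binds Sp1, CCGGAAG is the core bound by ETS factors, GCATGCGC is the core bound by NRF1, CCAAT is the box bound by NF-Y, and CACGTG is the E-box. No matches overlap in these windows.
Idh2 (chr7:80115301-80115600, minus strand): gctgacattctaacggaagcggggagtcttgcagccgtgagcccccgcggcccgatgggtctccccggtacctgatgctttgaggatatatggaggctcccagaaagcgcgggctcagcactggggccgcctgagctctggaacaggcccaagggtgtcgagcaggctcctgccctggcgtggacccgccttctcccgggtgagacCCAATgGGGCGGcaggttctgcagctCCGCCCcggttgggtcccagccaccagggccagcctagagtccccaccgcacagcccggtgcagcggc
Idh3b (chr2:130284402-130284701, minus strand): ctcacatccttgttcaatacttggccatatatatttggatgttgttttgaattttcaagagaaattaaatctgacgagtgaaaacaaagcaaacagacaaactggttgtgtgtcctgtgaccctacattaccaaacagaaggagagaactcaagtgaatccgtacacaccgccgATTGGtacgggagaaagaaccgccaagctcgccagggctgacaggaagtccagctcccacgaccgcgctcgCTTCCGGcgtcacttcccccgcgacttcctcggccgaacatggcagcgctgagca
Idh3g (chrX:73786848-73787147, minus strand): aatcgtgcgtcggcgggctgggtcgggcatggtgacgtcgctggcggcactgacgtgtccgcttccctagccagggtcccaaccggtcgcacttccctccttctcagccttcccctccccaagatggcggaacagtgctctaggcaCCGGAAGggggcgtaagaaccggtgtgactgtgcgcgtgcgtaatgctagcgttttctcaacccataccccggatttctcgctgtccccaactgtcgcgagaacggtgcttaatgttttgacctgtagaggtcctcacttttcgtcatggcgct
The windows of Idh3b and Idh3g each held 1 ETS core, found in 8.86% of all 32851 promoter windows of this length, and that of Idh2 held none. Outside the windows shown, that of Dlst, which was not called, also held 1 ETS core and 3 matches to the GC box, some overlapping, that of D2hgdh, which fell, held no ETS core, and 1 of the 2 windows of Idh1 held 2 GC boxes and a CCAAT box. The Idh2 window held 2 GC boxes, a motif in 35.7% of windows, and had 68.3% GC. A CCAAT box, found in 37.4% of windows, was present for Idh2 and Idh3b. None of the 3 held an NRF1 core or an E-box, which were in 2.71% and 7.15% of windows. The Idh3g window also spans the start of Ssr4, which lies 131 bases upstream on the opposite strand and encodes a subunit of the translocon-associated complex of the endoplasmic reticulum.

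Ssr4 did not pass the test. It held 86.7 ± 17.0 and 102 ± 16.5 FPKM in the saline and Ang II groups, and its log2 fold change was 0.23 (adjusted p = 0.151, limma). It was called higher in 6 of 31 alternatives, among them quantile normalization (0.45) and removal of GC and length trends (0.46). The log2 ratio of Idh3g to Ssr4 was 0.63 ± 0.27 with saline and -0.37 ± 0.30 with Ang II (SD, n = 8 per group), lower in each Ang II library than in every saline library. This ratio was chosen after its values were seen and is given with no test. The genes that start head to head with Idh1 and Dlst, Pikfyve and Prox2, had log2 fold changes of 0.19 and -0.14 (adjusted p = 0.316 and 0.34, limma).

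The genes of the 2-oxoglutarate dehydrogenase complex did not pass the test. Ogdh (ENSMUSG00000020456, chr11:6291633-6356642, plus strand) was at 75.0, 95.1 and 99.99 FPKM in the lowest, median and highest saline library and at 53.1, 74.1 and 89.1 FPKM with Ang II. The groups overlapped, with 4 of 8 Ang II libraries, and Ang II 1 by the widest margin, below every saline library. The log2 fold change of Ogdh was -0.29 (SE 0.11; adjusted p = 0.0514, limma), just short of the threshold. It was -0.15 after median ratio scaling (limma adjusted p = 0.302), and it passed in 8 of 31 alternatives, among them sample weights (limma adjusted p = 0.0223) and the replicate number as a block (limma adjusted p = 0.0422). Dlst (ENSMUSG00000004789, chr12:85110833-85134845, plus strand) had the smallest log2 fold change of the 8 genes and was at 84.9, 90.6 and 107 FPKM with saline and at 80.4, 85.7 and 93.3 FPKM with Ang II. The log2 fold change of Dlst was -0.12 (SE 0.07; adjusted p = 0.219, limma). Exact permutation gave p = 0.0148 for Ogdh and p = 0.0235 for Dlst, both unadjusted. The ratio of Ogdh to Dlst did not pass the test (difference -0.17 on the log2 scale, exact permutation, adjusted p = 0.219), and the difference was -0.09 without Ang II 1. Dld, the E3 component shared with other dehydrogenase complexes, differed by 0.06 in log2 fold change (SE 0.12; adjusted p = 0.737, limma), short of the threshold.

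D2hgdh (ENSMUSG00000073609, chr1:93824909-93852348, plus strand) was the lowest of the 8 genes in mean FPKM, with 108 to 336 reads per library behind its values. It was at 8.999, 11.51 and 18.6 FPKM in the lowest, median and highest saline library and at 5.31, 7.55 and 9.51 FPKM with Ang II. All Ang II libraries except Ang II 2 were below every saline library, and the highest saline values were those of Saline 8, Saline 2 and Saline 7. D2hgdh fell from 13.0 ± 3.46 to 7.34 ± 1.43 FPKM, a log2 difference of -0.73 (SE 0.15; adjusted p = 0.00145, limma; exact permutation p = 0.000311). Without those 3 saline libraries the log2 fold change was -0.50 (adjusted p = 0.00617, limma). Relative to Idh2 its level rose, by 0.47 on the log2 scale (exact permutation, adjusted p = 0.0185).

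Of the other genes of 2-hydroxyglutarate, 2 of 6 rose and 2 fell (median log2 fold change -0.04). Counts of this list and of those below are read beside the 24.9% of all genes called lower and the 9.54% called higher. Adhfe1, whose enzyme forms D-2-hydroxyglutarate from 2-oxoglutarate as it oxidises 4-hydroxybutyrate, fell from 5.26 ± 2.22 to 1.06 ± 0.688 FPKM, a log2 difference of -1.59 (SE 0.23; adjusted p = 6.28e-05, limma), with no overlap between groups. Dehydrogenases known to form 2-hydroxyglutarate as a side reaction went both ways. Phgdh, of serine synthesis, rose from 14.8 ± 4.92 to 24.7 ± 2.94 FPKM, Ldha, of lactate formation, rose (log2 fold change 0.50), and the mitochondrial malate dehydrogenase gene Mdh2 fell (log2 fold change -0.35). The calls of Ldha and Mdh2 were each lost in some alternatives, at 0.27 for Ldha (macrophage and monocyte score as a covariate) and at -0.21 and -0.03 for Mdh2 (median ratio scaling, and GC and length trends removed). Mdh1, its cytosolic counterpart, differed by -0.19 in log2 fold change (adjusted p = 0.324, limma), short of the threshold.

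Along the rest of the TCA cycle and pyruvate entry, 5 of 19 tested genes fell, none rose and 14 did not pass (median log2 fold change -0.19), a share close to the 24.9% of all genes tested that were called lower. None rose at an unadjusted limma p under 0.05, by the Wilcoxon test or by voom, and after median ratio scaling 3 fell. Cs, the citrate synthase at the entry of the cycle, did not pass (log2 fold change -0.15; adjusted p = 0.251, limma). Downstream, Sdhc, which anchors complex II in the membrane, fell from 91.2 ± 17.9 to 60.04 ± 6.24 FPKM (log2 fold change -0.58, limma adjusted p = 0.000958). Suclg2, a subunit of succinyl-CoA ligase, had a log2 fold change of -0.66 and Sdhb, the iron-sulphur subunit of complex II, of -0.43, a call lost with GC and length trends removed (-0.15). The fall of Idh2 was about the size of that of Slc1a5 (-1.21), and no other tested gene of the TCA cycle list fell as far.

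**Figure D3:**
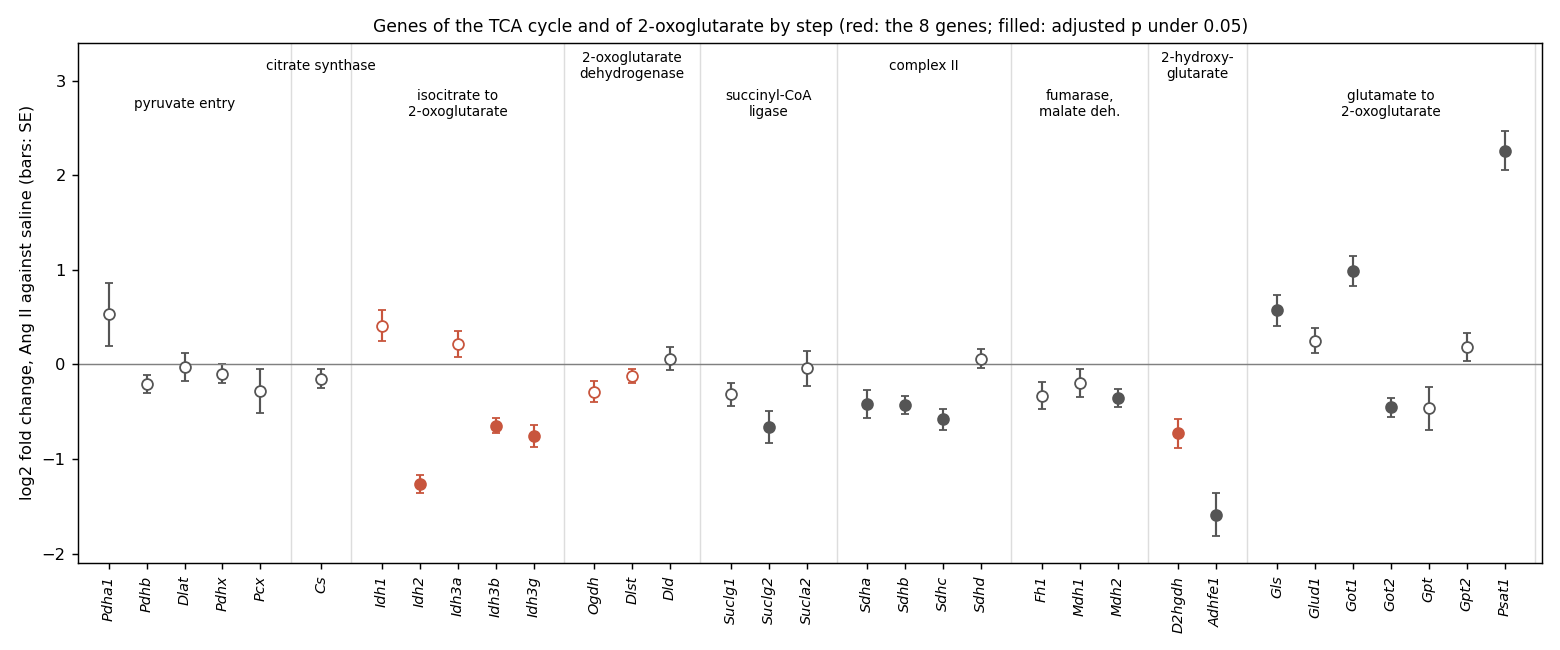
Log2 fold change of Ang II against saline (vertical axis; bars are SE from limma, n = 8 per group) for genes grouped by metabolic step, with the 8 genes in red, others in grey and filled points past the adjusted threshold. Idh2 (-1.26) is the lowest point of the cycle, Adhfe1 (-1.59) the lowest of all shown and Psat1 (2.26) the highest.

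Of the genes that make 2-oxoglutarate from glutamate, 4 of 10 tested rose and 2 fell (median log2 fold change 0.22). Of those that rose, Bcat1 was under the filter of 0.5 FPKM with saline and was tested only through its level with Ang II. Psat1, the aminotransferase of serine synthesis, rose by 2.26 on the log2 scale (limma adjusted p = 5.26e-07). Bcat1 and Got1, the cytosolic aminotransferases of branched-chain amino acids and aspartate, rose from 0.135 ± 0.154 to 2.29 ± 1.35 FPKM and from 8.03 ± 1.77 to 16.9 ± 3.86 FPKM. Their mitochondrial counterparts fell, Got2 from 60.9 ± 7.604 to 44.2 ± 5.52 FPKM and Bcat2 with a log2 fold change of -0.87, a call lost with each of 3 marker scores as a covariate. Glud1, the glutamate dehydrogenase, differed by 0.25 in log2 fold change (adjusted p = 0.152, limma), short of the threshold. It was called higher after median ratio scaling (0.39), quantile normalization (0.45) and removal of GC and length trends (0.31).

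The carriers that move 2-oxoglutarate, citrate and aspartate across the inner membrane fell in 2 and rose in 1 of 6 tested (median -0.25). The one that rose, Slc25a13, was tested only through its level with Ang II, averaging 0.299 and 0.963 FPKM in the saline and Ang II groups, and is named after its values were seen. Slc25a11, which exchanges 2-oxoglutarate for malate, fell from 62.2 ± 7.29 to 47.6 ± 4.46 FPKM without overlap between groups, but its call was lost after median ratio scaling (-0.24) and with GC and length trends removed (-0.01). Slc25a12, an aspartate and glutamate carrier, fell too (log2 fold change -0.28), a call lost in 4 of 31 alternatives. Partners of the 2-oxoacid dehydrogenases and lipoylation enzymes fell in 5 of 9 and rose in none, also at an unadjusted limma p under 0.05, by the Wilcoxon test and by voom (median -0.39). Among them Dhtkd1, of the 2-oxoadipate dehydrogenase, had a log2 fold change of -0.92, Bckdhb, of the branched-chain complex, of -0.99, and the lipoate synthase gene Lias of -0.37; the call of Lias was lost after median ratio scaling (-0.23).

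All 3 mitochondrial sirtuin genes fell (Sirt3, Sirt4 and Sirt5; median -0.64), and 7 of 31 alternatives lost the call of Sirt5. Sirt3, which encodes the deacetylase known to activate the Idh2 enzyme, fell from 16.6 ± 4.80 to 10.02 ± 1.58 FPKM, a log2 difference of -0.65 (adjusted p = 0.00198, limma), with all Ang II libraries below every saline library. Other sources of NADPH fell in 2 of 11 and rose in 1 (median 0.10), and all 3 calls (G6pdx, Mthfd1 and Mthfd2) were lost in at least 15 of 31 alternatives. Nnt, the transhydrogenase that supplies mitochondrial NADPH and that C57BL/6J mice are known to lack in functional form, was listed at 0 to 0.347 FPKM with saline and at 0.0679 to 0.307 FPKM with Ang II. Users of mitochondrial NADPH fell in 3 of 7 and rose in 1 (median -0.19); the thioredoxin reductase gene Txnrd2 had a log2 fold change of -0.61, the thioredoxin gene Txn2 of -0.38, the glutaredoxin gene Glrx2 of -0.25 and the peroxiredoxin gene Prdx5 of 0.34. The calls of Txnrd2, Txn2, Glrx2 and Prdx5 were lost in 3, 3, 13 and 16 of 31 alternatives, that of Txn2 after median ratio scaling (-0.24) and with GC and length trends removed (-0.12). Of 17 genes of mitochondrial mass and biogenesis 6 fell and none rose (median -0.22), while 1 rose at an unadjusted limma p under 0.05 and by the Wilcoxon test and none by voom. Of those that fell, Ppargc1b was under the filter with Ang II and was tested only through its level with saline. The import genes Timm44 and Tomm40 had log2 fold changes of -0.77 and -0.61, and Tfam, of mitochondrial DNA maintenance, of -0.31. Their calls were lost in 2, 7 and 4 of 31 alternatives, among them removal of GC and length trends for Tomm40 (-0.24) and median ratio scaling for Tfam (-0.18).

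Across libraries, the genes most like Idh2 were taken by the Pearson r of log2(FPKM + 1) after each group's mean was subtracted, over 16 libraries. Among the 5 highest were Mettl22 (r = 0.86), Pef1 (0.78), March9 (0.77, listed with a date-like symbol in the table) and Bcam (0.77). Among the 8 genes, Idh3b was the most like Idh2 at 0.75, followed by Idh3g at 0.58, Ogdh at 0.49 and D2hgdh at 0.28, and Idh1 and Idh3a were at -0.22 each. Without Saline 7 and Saline 8 the values were 0.70 for Idh3b, 0.39 for Idh3g, 0.22 for Idh1, 0.25 for Idh3a and 0.01 for D2hgdh, and Dlst went from 0.12 to -0.22, so the negative values of Idh1 and Idh3a and the value of D2hgdh rest on those libraries. These are descriptions with no test.

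Of the 8 genes, Idh3a, Idh1 and Dlst had the least GC and were not called. Ogdh, the other uncalled gene, lay among the called ones. The transcripts of Idh2, D2hgdh, Idh3g and Idh3b had 55.9%, 52.9%, 51.0% and 50.5% GC, and those of Idh1 and Idh3a, which were not called, 44.4% and 44.0%. Ogdh and Dlst, also not called, had 52.3% and 49.1%. The Spearman coefficient between GC content and a gene's deviation was -0.173 to 0.408 in saline and -0.427 to 0.136 in Ang II libraries. With trends of GC content and length removed from each library, Idh2 had a log2 fold change of -0.92, Idh3b of -0.49, Idh3g of -0.54 and D2hgdh of -0.50, all still past the test, and the ratio of Idh3a to Idh3b differed by 0.64 (exact permutation, adjusted p = 0.000233).

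**Figure D4:**
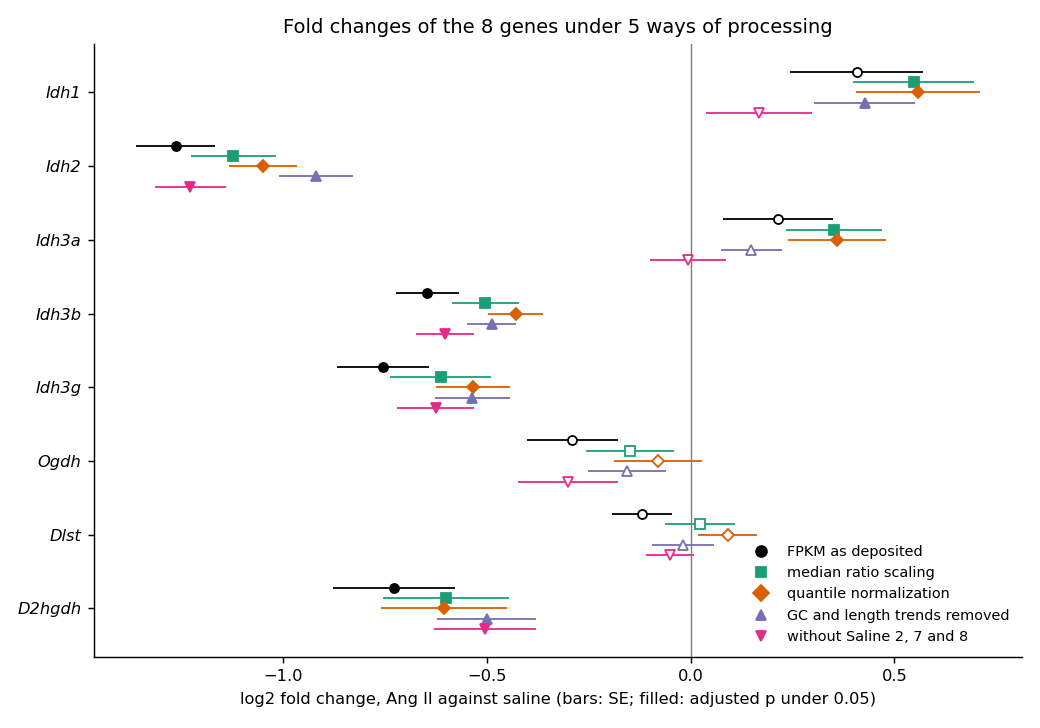
Log2 fold change of the 8 genes (horizontal axis; bars are SE from limma) with the FPKM as deposited, after median ratio scaling, after quantile normalization, after removal of GC and length trends, and leaving out Saline 2, 7 and 8; filled points are past the adjusted threshold. Idh2, Idh3b, Idh3g and D2hgdh are filled and below 0 in all 5, whereas Dlst changes sign and Idh1 and Idh3a are filled only in some.

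Some markers of cell types passed the test, and their counts are read beside the 24.9% of all genes called lower and the 9.54% called higher. In bulk samples, fewer cells of a type and less RNA per cell cannot be told apart. Of 8 smooth muscle markers 4 fell and none rose, with a summed level of 9282 to 15598 FPKM with saline and 6682 to 11219 FPKM with Ang II. Of 10 macrophage and monocyte markers 4 rose, with a summed level of 20.2 to 641 and 63.3 to 696 FPKM. Of those that rose, Ccr2 and Itgam averaged 0.272 and 0.358 FPKM with saline, under the filter of 0.5 FPKM. They were tested only through their level with Ang II. All 6 markers of cell division rose, from a sum of 3.80 to 7.13 FPKM to one of 31.6 to 84.5 FPKM. Among these, Ccnb1 averaged 0.427 FPKM with saline and was likewise tested only through its level with Ang II. Of 6 brown adipocyte markers tested 2 fell, with sums of 18.5 to 225 FPKM with saline (highest in Saline 8) and 12.1 to 36.7 FPKM with Ang II, and Elovl3 and Otop1 were too low to test. Of 9 white adipocyte markers 2 fell, with sums of 111 to 496 and 67.4 to 195 FPKM. Of 8 fibroblast markers of the adventitia 2 fell, with sums of 69.6 to 219 and 61.5 to 193 FPKM. The white adipocyte and fibroblast counts are near the share of all genes called lower. Of 8 endothelial markers 1 fell (Pecam1), of 6 cardiac markers tested 2 fell, and of 5 skeletal muscle and 5 red blood cell markers tested none passed. With the white adipocyte, brown adipocyte or macrophage and monocyte score as a covariate the log2 fold change of Idh2 was -1.18, -1.22 and -1.17, and Idh3b, Idh3g and D2hgdh stayed past the test with each. The part of smooth muscle content and of cell division in these changes was not tested.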

How the data were processed

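Libraries were made from total RNA extracted with Trizol, with an mRNA-seq kit, per the labels' protocols. The authors deposited 1 table of FPKM for 16 libraries, with Ensembl gene IDs and symbols; per the submitters' processing notes it rests on GRCm38 (mm10), and its aligner, counter and strand setting were not given in the sources used here. Groups and replicate numbers came from sample titles. Of the gene IDs 99.9% were in GENCODE M21. FPKM were whole multiples (within 0.02) of 1 read for 95.8% to 96.3% of values once mean transcript length was used, which gave the library totals.

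Genes averaging at least 0.5 FPKM were tested on log2(FPKM + 1) by limma 3.58.1 under R 4.3.3, its trend option on, two-sided, with Benjamini-Hochberg adjustment over all genes and a threshold of 0.05. Ratios within libraries were tested in Python 3.11.15 with exact permutation of the group labels, adjusted over 6 ratios. Fold changes on this scale understate those of low genes. The tests were checked on simulated data. In those for limma, noise was drawn for each gene alone, so differences shared by many genes of a library were not simulated. Over genes of all levels tested, limma recovered there 19.0% of 1.5-fold, 45% of 2-fold and 82.5% of 4-fold changes, with 2 false calls among 14975 genes. A gene that did not pass may therefore still have changed. The members and gene lists were chosen with earlier results of these data known. The text names the 8 genes, up to 3 rising and 3 falling genes of each list (smallest adjusted p, mean of at least 1 FPKM), a fixed set of neighbours in the pathway and genes among the 5 most like Idh2; some genes that this rule takes are not reported here. Alternatives were another pseudocount, filters, scalings, covariates, sample weights, the replicate number as a block, a rank test and leaving out libraries; voom on recovered reads, removal of GC and length trends and leaving out 3 saline libraries were added after seeing the data.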

Additional observations from a re-analysis of the deposited data

Results flagged for a closer look

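Saline 8 held 191 FPKM of Idh3g, far from the other saline libraries, whose values ran from 100.3 to 142 FPKM; the gap was 0.539 of the group's range, above the critical 0.526 for 8 samples. It was the 1 such value among 28 groups of values checked, where chance flags about 1 in 20. Without Saline 8 the log2 fold change of Idh3g was -0.68.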

How the results depend on the processing

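The falls of Idh2, Idh3b, Idh3g and D2hgdh kept their direction and passed the test in all 31 alternatives, with log2 fold changes of -1.31 to -0.92, -0.68 to -0.43, -0.81 to -0.53 and -0.80 to -0.50. All 6 ratios kept their direction and their side of the threshold in 21 alternatives each. Idh1 passed after median ratio scaling (0.55), quantile normalization (0.56) and removal of GC and length trends (0.43), and leaving out 1 library gave 0.30 to 0.47, past the test without Saline 3, Saline 5, Ang II 2 or Ang II 5. Idh3a passed after median ratio scaling (0.35) and quantile normalization (0.36), and was -0.0066 without Saline 2, Saline 7 and Saline 8. Ogdh passed with a filter at 1 FPKM (-0.29), the replicate block (-0.29) and sample weights (-0.29), and leaving out 1 library gave -0.33 to -0.22, past the test without Saline 1, Saline 2, Ang II 6, Ang II 7 or Ang II 8. Dlst was 0.022 after median ratio scaling and 0.091 after quantile normalization. For Idh1, Idh3a, Ogdh and Dlst the cause was not tested.

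Genes called higher and lower numbered 1431 and 3741, against 2235 and 2113 after median ratio scaling, 2269 and 2376 after quantile normalization, 923 and 2338 with the white adipocyte score, 770 and 2007 on adding the macrophage and monocyte score, and 2333 and 2224 with GC and length trends removed. Of the other TCA cycle genes 5 fell, against 3 after median ratio scaling or by the Wilcoxon test, 2 after quantile normalization or with GC and length trends removed (1 rose in each), 12 with sample weights, 8 without Saline 7 and Saline 8 and 11 without Saline 2 as well. Log2 fold changes of genes that did not pass changed sign for Dld (-0.0609 on adding the macrophage and monocyte score, -0.090 with sample weights, -0.10 without Saline 7 and Saline 8, -0.11 without Saline 2 as well, -0.031 to 0.097 leaving out 1 library), and Mdh1 (0.034) and Cs (0.021) after quantile normalization.

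Deviations of same-numbered saline and Ang II libraries correlated at over 0.1 in 5 of 8 pairs and not in the other 3 (-0.246 to 0.385 over all; 2 of 8 saline libraries matched their own number best), so the numbers are not taken to pair them. The replicate block gave 1414 higher and 3531 lower genes and changed no call of the 8 genes except that of Ogdh.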
